A study of Caenorhabditis elegans with 5 samples.

Results

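The LIN-42 ChIP-seq peaks described here lie downstream of protein-coding genes. They are the peaks of 3 lists with 1 bp or more in a region that the authors' annotation places downstream of a coding gene. That annotation holds 412 regions, each assigned to a gene, 107 of them in the downstream class, at 102 distinct intervals. By the study's methods its regions come from peaks detected in both LIN-42::GFP replicates. The rule took 284 of the 4654 peaks: 108 of 946 in LIN-42::GFP replicate 1, 107 of 2580 in LIN-42::GFP replicate 2 and 69 of 1128 in the endogenous LIN-42 list. A replicate 1 peak with 1 bp or more in common with a peak of replicate 2 is called a shared site. There were 395 shared sites, 41.8% of the replicate 1 peaks, and 104 of them fell in the downstream class, assigned to 79 genes.

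LIN-42 is the worm relative of PERIOD, the repressor of the circadian clock in flies and mammals. It carries PAS-type domains, which mediate contacts between proteins, and has no recognized DNA-binding domain of its own, so a ChIP peak can record contact with DNA through another protein. In Caenorhabditis elegans it acts in the heterochronic pathway, which times the divisions and fates of larval cells, and in the molting cycle. The worm genome is compact, and sequence past the end of one gene is often also the flank of the next. The downstream label therefore names a position relative to the assigned gene, not the gene that a site may act on.

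All 5 libraries came from whole-animal extracts of strain HML214, grown at 20 °C and collected, by the study's methods, as late L4 larvae. This strain expresses a functional GFP-tagged LIN-42, and the labels do not name the promoter of the tagged gene or any other allele. The LIN-42::GFP ChIP libraries (n = 2, from separate extracts) used an antibody against GFP. The endogenous LIN-42 ChIP library (n = 1) used an antibody against LIN-42 itself, in the same tagged strain. By the study's methods it was raised against a peptide of the LIN-42A and LIN-42B isoforms. The methods also list it among the antibodies used on GFP-tagged LIN-42, so the name endogenous does not set the untagged protein apart. The reference was input chromatin (n = 2), which enters only as the control named in the headers of the LIN-42::GFP lists. No untagged strain or lin-42 mutant is among these libraries, and the extracts pool all tissues of the larva.

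After MACS, the peak caller, had kept 1 tag (an aligned read) per position, 38236 tags remained of 833169 in replicate 1, 43991 of 4334100 in replicate 2 and 122089 of 2268716 in the endogenous library. The removed share was 95 to 99%, as the headers give it. The lowest peaks hold 4 tags in either LIN-42::GFP list and 5 in that of endogenous LIN-42. Where a list has no peak at a site, none was called at that library's depth and background, which does not make binding absent. The endogenous list names no control in its header, although the study's methods describe input controls for all peak calls. By the header its folds are against its own background, and tags were compared between lists only as counts. The part of that background in its folds and peaks at clustered and isolated sites was not tested.

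Among the 104 downstream sites, 41 had another replicate 1 peak within 2000 bp and are called clustered, 39.4% of the class against 30.4% of all shared sites. The other 63 stood alone and are called isolated. No site had its nearest neighbor between 1905 and 5464 bp away. The clustered sites nearest to the 2000 bp limit were at Y5F2A.4 and ZK218.8, with gaps of 1905 and 1855 bp to the next peak. The isolated sites nearest to it were at Y60A3A.21 and Y105E8A.14, with gaps of 5464 and 5879 bp. Clustered sites were also clustered in replicate 2 in 38 of 41 cases, and isolated sites were isolated there in 57 of 63.

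The downstream sites lay on all 6 chromosomes. Chromosome V held 28 of them, I held 24, III held 19, II and IV held 12 each and X held 9. As a share of the shared sites on each chromosome the class made up between 14.8% on X and 31.5% on V. All 9 sites on X were isolated, whereas 14 of the 24 on I were clustered, all within a single run at Y106G6E.8 and Y106G6E.4.

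The label was then checked against the distances given with it. Of the 107 downstream regions, 94 had a positive distance to the gene, and in each of these the start site lay farther away than the gene, as it does past a gene's end. The remaining 13 had a negative distance, and in all 13 its size equalled the distance to the start site. By these columns the nearest point of those 13 genes is the start site, so the downstream label is not borne out for them. A further 12 regions of other classes also had a negative distance, and in 0 of those 12 did it equal the start-site distance.

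The 13 sites with a negative distance were all isolated and are kept in the counts. Their genes were agef-1, an exchange factor for Arf GTPases, tbc-9, a TBC-domain gene of the Rab GTPase-activating kind, aat-2, an amino acid transporter, C48B4.1, an acyl-CoA oxidase gene (acox-1.5), fbxa-31, clec-225, srab-10, M01E5.2, Y6B3B.9, F14D2.7, Y39A3CR.8, Y43F8C.7 and Y7A5A.6. The sizes of their distances ran between 527 bp at Y6B3B.9 and 25897 bp at tbc-9. An endogenous peak was present at 9 of the 13 (69.2%, 95% Wilson interval 42.4 to 87.3). This share lay inside the interval of the 50 other isolated sites, of which 40 had an endogenous peak (80.0%, 67.0 to 88.8).

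**Figure D1:**
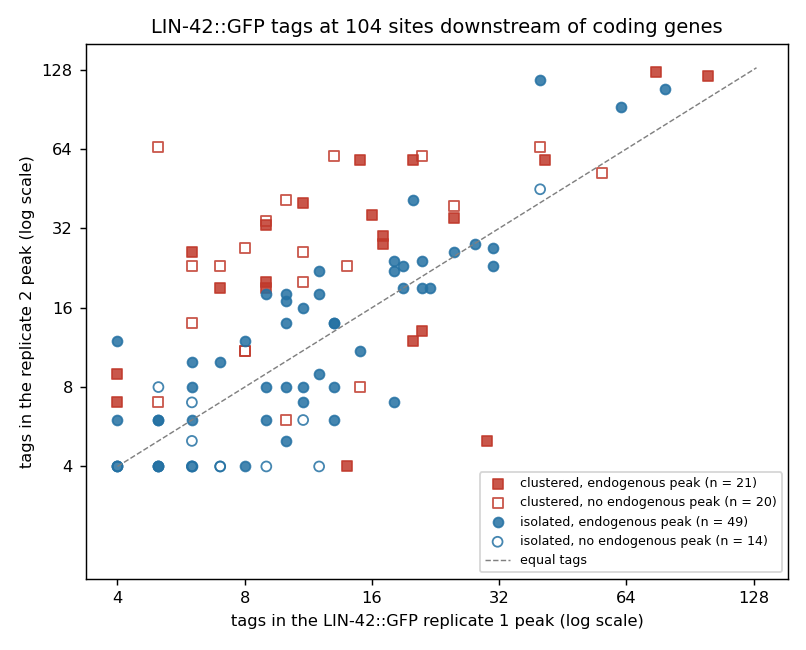
Tags in the replicate 1 peak (horizontal, log scale) and in the overlapping replicate 2 peak (vertical, log scale) of the 104 downstream sites, with squares for clustered sites, circles for isolated sites and filled symbols where an endogenous LIN-42 peak overlaps. Clustered sites lie mostly above the line of equal tags (34 of 41), and isolated sites lie on both sides of it (29 above, 28 below and 6 on it).

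The 2 kinds of site had nearly the same tags in replicate 1 and differed in shape. Clustered sites had a median of 11 tags in replicate 1 (range 4 to 100), and isolated sites a median of 10 (4 to 79). In replicate 2 the medians were 26 tags at clustered sites (4 to 125; 15.5 without the 3 runs of 4 or more downstream sites chained within 2000 bp) and 8 at isolated sites (4 to 117). Clustered peaks were longer, with a replicate 1 median of 389 bp (119 to 2510), against 140 bp at isolated sites (116 to 1851). In all, 32 of 41 clustered and 15 of 63 isolated sites exceeded 250 bp.

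Tags were spread more thinly over clustered sites. The replicate 1 peaks held a median of 3.10 tags per 100 bp at clustered sites and 5.08 at isolated sites. Fold enrichment, which MACS takes at the summit of a peak, had a replicate 1 median of 21.7 at clustered sites (9.32 to 103) and 133 at isolated sites (10.7 to 752). In the endogenous list the median fold was 8.38 at the 21 clustered sites with a peak (3.47 to 46.2) and 59.5 at the 49 isolated ones (11.4 to 107). The replicate 2 medians were closer, 40.6 at clustered and 53.8 at isolated sites, and without those 3 runs the clustered median was 63.3, above the isolated one.

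The fold in replicate 1 is not in itself a height over input. Divided by its tags, it took the value 24.27 (to within 0.02) at 25 of 63 isolated sites and at none of the 41 clustered sites. The same quotient recurred at 376 of all 946 replicate 1 peaks, so at these the fold repeats the tag count. A fold below 50 was found at 40 of 41 clustered sites and at 15 of 63 isolated sites, and 11 of those 15 were longer than 250 bp. Low fold was not limited to long peaks, since 8 of the 9 clustered sites of 250 bp or less were also below 50, against 4 of the 48 isolated sites of that length.

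**Figure D2:**
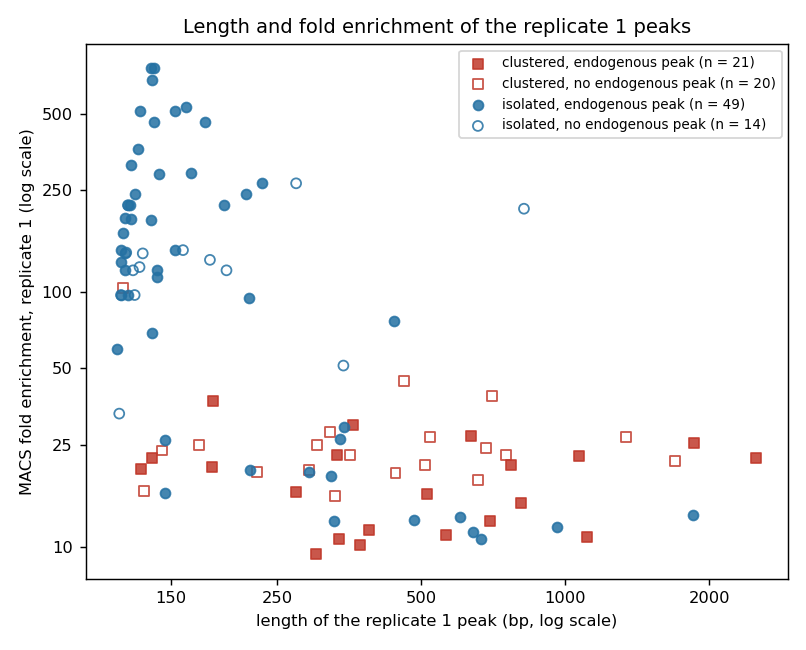
Length of the replicate 1 peak (horizontal, bp, log scale) against its MACS fold enrichment (vertical, log scale) at clustered (squares) and isolated (circles) downstream sites, filled where an endogenous LIN-42 peak overlaps. Clustered sites fall below a fold of 50 in 40 of 41 cases, and most isolated sites are short and above it.

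At most isolated sites the summits of the libraries lay close together. The median shift between the replicate 1 and replicate 2 summits was 81 bp at clustered sites and 8 bp at isolated sites. Between replicate 1 and the endogenous list it was 351 bp at clustered sites (94 without those 3 runs) and 7 bp at isolated sites. A replicate 2 summit lay within 50 bp at 17 of 41 clustered and 54 of 63 isolated sites. An endogenous summit lay within 50 bp at 5 of the 21 clustered and 44 of the 49 isolated sites that had one. The part of peak length in these shifts was not tested.

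Tags in the 2 LIN-42::GFP replicates varied together across isolated sites more than across clustered ones. Pearson's r was 0.77 over the 41 clustered sites and 0.89 over the 63 isolated sites, and Spearman's rho was 0.46 and 0.79 in the same order. These correlations are across sites within a pair of libraries, which share each library's depth, and are descriptive. Replicate 2 had more tags than replicate 1 at 34 of 41 clustered sites, with a median ratio of 1.82, and at 29 of 63 isolated sites, with a median ratio of 1. Several clustered sites also share a replicate 2 peak, since the 104 sites overlap 99 distinct peaks of replicate 2 and 66 of the endogenous list.

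The narrow isolated sites with most tags were alike in all 3 libraries. There were 9 isolated sites of 250 bp or less with 18 or more tags in replicate 1. All 9 had an endogenous peak, against 84.4% of all isolated shared sites, which were not picked by tags. Among isolated downstream sites the share was 17 of 19 at 11 to 20 replicate 1 tags and 10 of 11 at 21 to 79. The 9 sites held 19 to 28 tags in replicate 2 and 18 to 39 in the endogenous list. Their peaks were 129 to 177 bp long with replicate 1 folds of 289 to 752. The summits in the other libraries lay at most 27 bp from that of replicate 1.

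Of these, the site 982 bp from Y55B1BL.1, at ce10 chromosome III:406596-406733, held 31 tags in replicate 1, 23 in replicate 2 and 39 in the endogenous list. The site 3307 bp from F47H4.2, at V:17363600-17363735, held 31, 27 and 30 tags in the same order of libraries. The site 295 bp from C03A3.1, at X:11260456-11260592, held 28, 28 and 23. These counts, of 1 tag per position, thus differed little between the 3 libraries, although the endogenous library kept more tags over the genome. The part of the 1 tag limit in these narrow peaks was not tested.

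The site near lin-65, a gene with a role in histone H3 lysine methylation and chromatin, lay 155 bp from it at I:1766625-1766766 and held 25, 26 and 24 tags. The site assigned to agef-1, one of those with a negative distance, held 21, 24 and 27 at I:13618401-13618553. K07F5.15 had 22, 19 and 19 tags at IV:9867539-9867699. At these 3 sites the summits of the other lists lay at most 4 bp from that of replicate 1. The group was completed by Y60A3A.21 (21, 19 and 18 tags), fbxa-31 (19, 19 and 23) and ceh-37 (19, 23 and 20). The gene ceh-37 encodes an Otx-type homeodomain protein that also binds telomeric repeats, and its site, at X:14193177-14193353, was the farthest from its gene among isolated sites with a positive distance, at 3940 bp.

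The isolated sites longer than 250 bp mostly held more tags in the endogenous library than in either LIN-42::GFP library. The endogenous count was the highest of the 3 lists at 10 of the 12 long isolated sites with an endogenous peak and at 16 of the 37 shorter ones. The site 1815 bp from T20G5.14, a gene named cox-14 in the reference table, at III:10224606-10225567, held 79 tags in replicate 1, 108 in replicate 2 and 285 in the endogenous list. The site 670 bp from clec-81, a C-type lectin gene, at IV:2828734-2830584, held 62, 92 and 214. Both had replicate 1 folds (11.9 and 13.4) of the size seen at clustered sites. Their replicate 1 and endogenous summits lay 280 and 625 bp apart.

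Other long isolated sites were smaller versions of this form. Y49G5A.1 held 20, 41 and 76 tags, fbxa-55 held 18, 22 and 51, Y20C6A.4 held 18, 24 and 31, and Y50D4B.2 held 18, 7 and 31. Their replicate 1 peaks were 328 to 668 bp long with folds of 10.7 to 13.1. At dnc-6, a dynactin subunit gene, the 3 libraries had 11, 16 and 38 tags, and at the nuclear receptor gene nhr-5 they had 13, 6 and 34. The endogenous list held the most tags at each of these 6 sites.

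A pair of sites lay at a chromosome's first bases. The site assigned to Y74C9A.3 covered chromosome I bases 13 to 451 and held 40, 117 and 78 tags, and its replicate 2 fold of 909 was the highest among the downstream sites. The site assigned to fbxa-6 covered chromosome III bases 4 to 140 and held 9, 18 and 13 tags, with a replicate 2 fold of 372. Their genes lay 3668 and 1131 bp away. Replicate 2 exceeded replicate 1 at both.

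Isolated sites with no endogenous peak numbered 14, and most had few tags in replicate 2. Their median was 6 tags in replicate 1 (4 to 40) and 4 in replicate 2 (4 to 45). In replicate 1 this equalled the median of the whole list, 6 tags, and in replicate 2 it was the lowest count of a listed peak. The 49 isolated sites with an endogenous peak had medians of 11 and 12 tags in these libraries. Exactly 4 tags in replicate 2 were found at 9 of the 14.

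The genes of these sites include ell-1, related to the ELL elongation factor of RNA polymerase II (5 tags in replicate 1 and 4 in replicate 2), pqn-89, which encodes a glutamine- and asparagine-rich protein (7 and 4), aat-2 (7 and 4) and F13E6.4, named yap-1 in the reference table and related to the Hippo pathway coactivator YAP (6 and 7). R02F2.9 and F48G7.12 had the minimum of 4 tags in both replicates. The others at low counts were M01E5.2 (11 and 6), W04A8.6 (6 and 5), C17H12.3 (9 and 4), Y43D4A.3 (5 and 8), clec-225 (12 and 4), Y43F8C.7 (6 and 4) and fre-1 (6 and 4). These 13 sites held at most 12 tags in either replicate.

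The remaining site without an endogenous peak held more tags. It lay 711 bp from Y52E8A.4, a gene named plep-1 in the reference table, at II:4308309-4309128, where 40 tags of replicate 1 and 45 of replicate 2 fell within a peak of 820 bp in replicate 1. Its fold was 212 in replicate 1 and 7.22 in replicate 2, the lowest replicate 2 fold of the class. The 2 LIN-42::GFP libraries thus had similar tags and very different folds at this site. With 40 tags it ranked beside the Y74C9A.3 site, which had 78 endogenous tags.

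Across isolated sites the endogenous share was higher where LIN-42::GFP tags were higher. By replicate 1 tags an endogenous peak was found at 7 of 11 sites with 4 to 5 tags, 15 of 22 with 6 to 10, 17 of 19 with 11 to 20 and 10 of 11 with 21 to 79. By replicate 2 tags it was found at 6 of 16 sites with 4 to 5 tags, 16 of 19 with 6 to 10, 14 of 14 with 11 to 19 and 13 of 14 with 21 to 117. The lowest bin of replicate 2 (37.5%, 95% Wilson interval 18.5 to 61.4) lay below the intervals of the bins with 6 to 10 tags (84.2%, 62.4 to 94.5) and of the higher bins. These intervals cover counting error only, and no test was made.

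Clustered sites gathered in a few places. When downstream sites within 2000 bp of each other were chained, the 104 sites formed 76 loci. Of these, 69 held a single site, 2 held 2 sites and 5 held 3 or more. The 5 runs of 3 or more took 31 of the 41 clustered sites. At another 6 clustered sites the neighboring peak was not itself a downstream site.

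The longest run lay between Y106G6E.8 and Y106G6E.4, whose neighbor Y106G6E.3 stands between them in the reference gene order. Its 14 sites spanned 14902 bp, I:10204168-10219069, at distances of up to 9612 bp from the assigned gene. Replicate 1 had 14 peaks of 5 to 100 tags there (338 in all), and replicate 2 had 12 peaks of 8 to 121 tags (499 in all). Replicate 2 peaks covered 13421 bp of the run and replicate 1 peaks 9995 bp, so the run was close to continuous in replicate 2.

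The endogenous list had 3 peaks in this run, of 91, 90 and 242 tags, and they overlapped 4 of the 14 sites. All 3 lay toward its ends, with none between bases 10207408 and 10216582. The last site of the run had 100 tags in replicate 1, 121 in replicate 2 and 242 in the endogenous list, the highest in this run in each library. In the stretch without an endogenous peak replicate 1 still had a peak of 56 tags. The endogenous folds at the ends were low, 3.47 to 4.49, and those of replicate 1 were 16.1 to 39.2.

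The run at ZK218.8, a gene classed as a pseudogene in the reference table, had no endogenous peak. Its 7 sites spanned 6119 bp, V:17120492-17126610. In replicate 1 they held 14, 8, 9, 10, 11, 8 and 11 tags, 71 in all, a narrow range. Replicate 2 had 10 peaks there of 7 to 41 tags, 229 in all. A further ZK218.8 site lay outside the chain, at V:17117950-17118338, nearer to the gene at 964 bp. It held 17 tags in replicate 1, 30 in replicate 2 and 51 in the endogenous list.

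**Figure D3:**
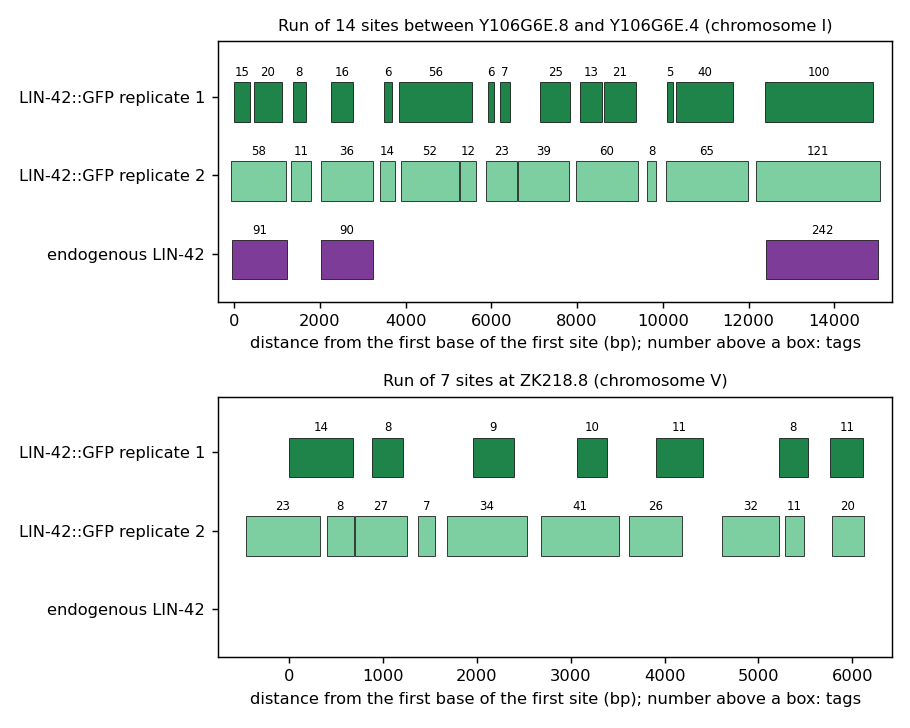
Peaks of the 3 lists (boxes, to scale) along the runs at Y106G6E.8 and Y106G6E.4 (top) and at ZK218.8 (bottom), with the distance from the first base of the first site in bp on the horizontal axis and the tags of each peak above its box. LIN-42::GFP peaks run along both, whereas the 3 endogenous peaks of the top run lie toward its ends and the bottom run has none.

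The run at cct-4, a subunit gene of the CCT chaperonin, and its neighbor F14F11.2 had an endogenous peak at every site. Its 4 sites spanned 3825 bp, II:8288767-8292591, with 11, 41, 21 and 25 tags in replicate 1. The 3 endogenous peaks there held 111, 134 and 123 tags and together covered 3837 bp. The run was thus nearly unbroken in the endogenous library, at folds of 4.85 to 6.90.

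At Y5F2A.3 and Y5F2A.4 the 3 sites spanned 4802 bp, IV:11070904-11075705, and held 75, 9 and 15 tags in replicate 1. A single endogenous peak of 224 tags overlapped the first 2 of them, at Y5F2A.3, which the reference table classes as a pseudogene. Replicate 2 had 125 tags in its largest peak there.

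The run at Y53G8AR.1 was the only one of the 5 with fewer tags in replicate 2 than in replicate 1. Its 3 sites spanned 2734 bp, III:3334053-3336786, with 10, 14 and 30 tags in replicate 1. Replicate 2 had 6 short peaks of 4 to 6 tags, 28 in all. The endogenous list had 3 peaks of 26 to 54 tags, which overlapped the last 2 sites. In each of the other 4 runs the summed tags of replicate 2 exceeded those of replicate 1.

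Smaller clusters included a pair of F-box genes. The sites at fbxa-77 and fbxa-91, neighbors in the reference gene order, lay 378 bp apart on chromosome III with 4 tags each in replicate 1, 7 and 9 in replicate 2 and 12 and 13 in the endogenous list. The fbxa-28 site, at III:1299726-1300097, held 20 tags in replicate 1 and 12 in replicate 2, and it overlapped the largest endogenous peak of the class, of 389 tags. A second replicate 1 peak at fbxa-28, of 26 tags, overlapped no replicate 2 peak, the nearest being 117 bp away. It is 1 of the 4 replicate 1 members that are not among the 104 sites.

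The other 3 such members were at pes-10, at T12G3.7 and at arrd-1, an arrestin-domain gene. The pes-10 peak had 33 tags and lay 196 bp from the nearest replicate 2 peak. At T12G3.7 the peak had 4 tags and lay 107 bp from the nearest one. The arrd-1 peak of 6 tags overlapped a replicate 2 peak but fell mainly in a promoter region. Both pes-10 and arrd-1 also had a shared downstream site, with 6 and 9 tags in replicate 1, 26 and 33 in replicate 2 and 37 and 20 in the endogenous list.

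The endogenous antibody detected 70 of the 104 downstream sites (67.3%, 95% Wilson interval 57.8 to 75.6), against 78.2% of all shared sites. By site, clustered sites had an endogenous peak less often, at 21 of 41 (51.2%, 36.5 to 65.7), than isolated sites, at 49 of 63 (77.8%, 66.1 to 86.3). This difference of -26.6 percentage points passed Fisher's exact test (two-sided p = 0.00590, adjusted p = 0.0177, Benjamini-Hochberg over 6 tests). Among all shared sites the share was 64.2% of clustered and 84.4% of isolated ones.

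The difference did not hold when each locus was counted once, as having an endogenous peak if any of its sites had one. A locus of several sites thus had more chances of a peak than an isolated site. The run at Y106G6E.8/Y106G6E.4 counted as having one although only 4 of its 14 sites did. An endogenous peak was present in 11 of 13 clustered loci (84.6%) and in 49 of 63 isolated ones (77.8%), a difference of 6.84 points (Fisher's exact test, two-sided p = 0.724, adjusted p = 0.859). Of the 20 clustered sites without an endogenous peak, 17 lay in the runs at Y106G6E.8/Y106G6E.4 and ZK218.8. Outside these 2 runs 17 of 20 clustered sites had an endogenous peak. Among sites with 8 or more tags in both LIN-42::GFP lists the difference by site was larger, with 15 of 29 clustered sites (51.7%) and 31 of 32 isolated sites (96.9%) having an endogenous peak, a difference of -45.2 points (Fisher's exact test, two-sided, adjusted p = 0.000266 over 6 tests). Sites of a run are not independent, since they share their surroundings and in part the same endogenous peak. The p-values by site treat them as independent. A count by locus is not given for the sites with 8 or more tags. Most clustered sites of that subset without an endogenous peak again lay in the runs at Y106G6E.8/Y106G6E.4 and ZK218.8. The p-value for that subset thus rests largely on those 2 runs.

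Where clustered sites had an endogenous peak it held more tags than at isolated sites. The endogenous median was 90 tags at the 21 clustered sites (12 to 389) and 14 at the 49 isolated sites (5 to 285). Some clustered sites share an endogenous peak, and the median over the 17 distinct peaks was 86 tags. Without the 3 runs of 4 or more sites the clustered median was 37 tags (n = 13). At all 21 clustered sites the endogenous count exceeded that of replicate 1, with a median ratio of 4.14, and at isolated sites it did so at 35 of 49, with a median ratio of 1.43. Endogenous peaks were also longer there, with medians of 1165 bp at clustered and 174 bp at isolated sites.

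The downstream class was then compared with the 291 other shared sites. By site an endogenous peak was less frequent at downstream sites, 70 of 104 (67.3%), than at other shared sites, 239 of 291 (82.1%), a difference of -14.8 points (Fisher's exact test, two-sided p = 0.00230, adjusted p = 0.0138). By locus it was present at 60 of 76 downstream loci (78.9%) and 220 of 252 other loci (87.3%), which did not pass Fisher's exact test (p = 0.0941, adjusted p = 0.141). Without the 3 runs of 4 or more sites, removed from the downstream class only, the difference by site was -3.65 points. With peaks of replicate 2 alone, at regions still drawn from both replicates, it was -11.4 points (adjusted p = 0.0513 by Fisher's exact test). Shared sites in coding gene promoters had one at 112 of 126 (88.9%) and those in introns at 85 of 96 (88.5%).

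Downstream sites were more often clustered, 41 of 104 (39.4%), than other shared sites, 79 of 291 (27.1%). The difference of 12.3 points had p = 0.0251 and an adjusted p of 0.0501, just short of the 0.05 threshold (Fisher's exact test, two-sided). Without the 3 runs of 4 or more sites it was -6.89 points (16 of 79 downstream and 79 of 291 other sites). Runs among the other shared sites were kept, so this removal was not matched. By locus the shares were 13 of 76 downstream (17.1%) and 40 of 252 others (15.9%, Fisher's exact test, p = 0.859). Among the other classes clustering ranged widely, with 47 of 126 promoter sites (37.3%) and 7 of 96 intron sites (7.29%).

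**Figure D4:**
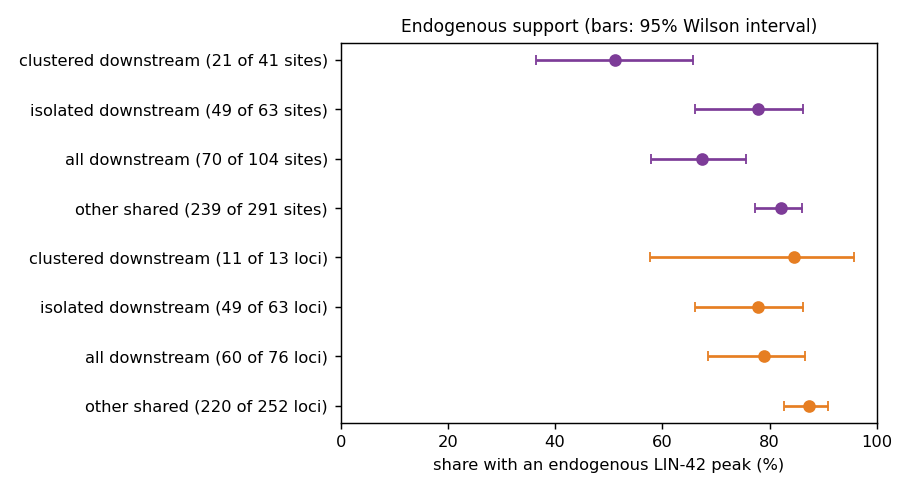
Share of sites (purple) and of loci (orange) with an endogenous LIN-42 peak, in percent, for clustered, isolated and all downstream sites and for the other shared sites; points are shares and bars 95% Wilson intervals. Clustered downstream sites are lowest by site (51.2%) but not by locus (84.6%), where a locus counts if any of its sites has a peak.

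Distances to the assigned gene were longer at clustered sites. Their median was 2925 bp (83 to 9612), and that of isolated sites was 1043 bp (1 to 25897). Without the 3 runs of 4 or more sites the clustered median was 616 bp, below that of isolated sites. Without the 13 negative distances the isolated median was 674 bp (1 to 3940, n = 50). Clustered sites lay over 5000 bp away in 13 of 41 cases, all 13 in the runs at Y106G6E.8/Y106G6E.4 and ZK218.8 and none with an endogenous peak. Isolated sites lay so far in 3 of 63 cases, all 3 with a negative distance and an endogenous peak.

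Within 500 bp of the gene there were 6 clustered sites, 3 of them with an endogenous peak, and 18 isolated sites, 13 of them with one. The 5 sites closest to a gene were those of srx-118 (1 bp), C17H12.3 (14 bp), F13E6.4 (71 bp), pinn-4, a parvulin-type prolyl isomerase gene (83 bp), and pqn-89 (98 bp). Of these, only srx-118 had an endogenous peak, with 6 tags in replicate 1, 4 in replicate 2 and 12 in the endogenous list at II:12527806-12527925. All 5 had 9 tags or fewer in each LIN-42::GFP library.

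**Figure D5:**
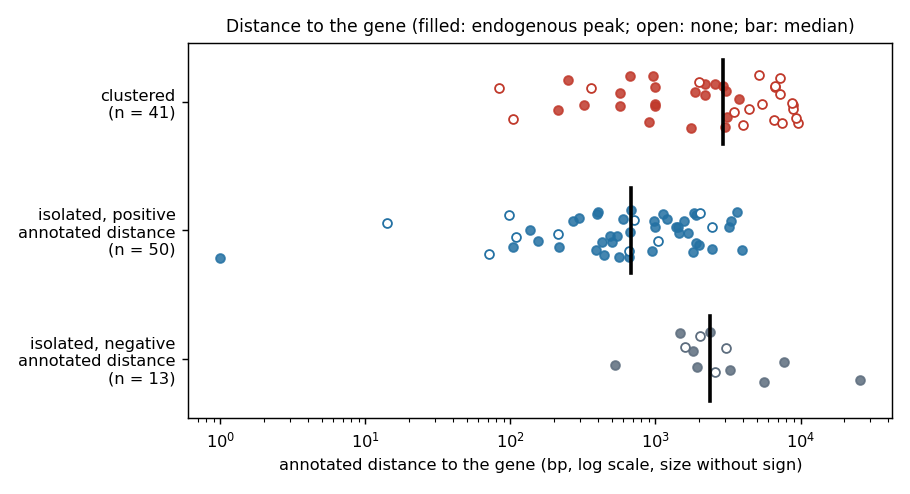
Size of the annotated distance to the gene (bp, log scale) of each downstream site, for clustered sites, isolated sites with a positive distance and isolated sites with a negative distance; filled points have an endogenous LIN-42 peak and bars are medians. The 13 clustered sites beyond 5000 bp are all open, and the median is 2925 bp for clustered sites and 674 bp for isolated sites with a positive distance.

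The 79 assigned genes were mostly of unrelated kinds. Of these, 77 matched the reference gene table by name, 74 of them protein-coding and 3 pseudogenes (Y5F2A.3, ZK218.8 and fbxa-91), and 11 sites were assigned to the pseudogenes. The F-box A family, named for a motif that links proteins to ubiquitin ligases, was the largest of the families searched by name, with 6 sites at 6 genes (fbxa-6, fbxa-28, fbxa-31, fbxa-55, fbxa-77 and fbxa-91), all on chromosome III. All 6 had an endogenous peak, against 78.2% of all shared sites, and the fbxa-77 and fbxa-91 sites belong to the same locus. The family had 8 of the 395 shared sites in all.

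Genes of the nematode chemoreceptor families, most of which are used by sensory neurons, had 3 downstream sites of 11 shared sites. These were srw-83 (12, 22 and 11 tags), srab-10 (9, 8 and 9) and srx-118, each isolated with an endogenous peak. Of all isolated shared sites, 84.4% had one. C-type lectin genes had clec-81 with an endogenous peak and clec-225 without. Other isolated sites with an endogenous peak lay near sqv-6, a xylosyltransferase gene of glycosaminoglycan synthesis (13, 14 and 13 tags), ncx-9, a sodium-calcium exchanger gene (6, 10 and 14), and acs-16, an acyl-CoA synthetase gene (5, 4 and 5). The acs-16 site was thus listed in 3 libraries at or next to the lowest count of each.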

How the data were processed

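The authors aligned reads to ce10 with Bowtie2 and called peaks on each library alone with MACS, 1.4.2 in the list headers, at a p-value limit of 1e-05. Each deposited peak has a count of tags, unnormalized, made after 1 tag was kept per position. The score in the deposited lists is 10 times the negative log10 of the p-value. The fold enrichment the authors deposited is a ratio of summit tags to the background in the control, or in the library itself for endogenous LIN-42. The false discovery rate, in percent, in the deposited LIN-42::GFP lists was used in an alternative. How the controls named in the headers match the labelled inputs is not given in the sources used here. Depths kept were 38236, 43991 and 122089 tags.

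Coordinates were read as 1-based, after 1 was added to the region annotation's starts. Each shared site took the class, gene and distance of the region with the largest overlap. A locus counted as having an endogenous peak where any of its sites did. Analyses used Python 3.11.15, pandas 2.3.3 and SciPy 1.17.1, checked on simulated intervals. Shares have 95% Wilson intervals, which cover counting error only, and counts were compared by Fisher's exact test, by site and by locus, with Benjamini-Hochberg adjustment over 6 tests. Gene names, gene types and gene order came from a WBcel235 table whose coordinates were not used. The alternatives concerned score, tags, overlap, neighbor distance, runs and left-out libraries.

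The genes named are those of runs of 3 or more sites, of the 10 isolated sites with most tags in each list, of isolated sites without an endogenous peak, of the 5 closest and 5 farthest sites, of negative distances, of 5 gene families and of chromosome starts. A few others (Y60A3A.21, Y105E8A.14, sqv-6, ncx-9, acs-16, arrd-1, pes-10 and T12G3.7) were picked with their values in view. The members, lists and rules were chosen with earlier results of these data known.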

Additional observations from a re-analysis of the deposited data

How the results depend on the processing

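Recalculation under 14 fixed alternatives and 2 chosen after seeing the data left 130 of the values on the same side of their thresholds or within their intervals. Another 11 moved outside their interval or range, 3 changed direction, 9 lost the threshold and 4 passed it. The clustered minus isolated difference in endogenous share stayed in 10 settings, weakened in 3 and turned in 2. The downstream minus other difference in that share stayed in 10 and weakened in 6. The count of downstream sites was 50 at a score of 100 or more in both LIN-42::GFP lists and 61 at 8 or more tags, and 107 with either replicate left out. The share of downstream sites with an endogenous peak was 82.0% at that score, 78.5% without the runs of 4 or more sites and 78.9% per locus, and 67.3 to 68.2% with a replicate left out. The annotated regions were drawn from both LIN-42::GFP replicates, so a replicate left out still took part in choosing the sites. These settings therefore cannot show how far the results depend on it.

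The difference in that share, clustered minus isolated, was 3.47 percentage points without the runs of 4 or more sites and 6.84 points per locus, so its direction turned. It was -27.7 points at a score of 100 or more and, in an alternative chosen after seeing the data, -32.6 points among peaks of 250 bp or less, neither past the threshold. With a replicate left out it was -23.1 to -23.0 points, past the threshold without replicate 2 and not without replicate 1. The difference of downstream minus other shared sites was -10.1 points at that score, -13.5 at 8 or more tags, -3.65 without the runs, -8.35 per locus and -8.54 among isolated sites alone (chosen after seeing the data), none past the threshold, and -12.4 to -11.4 with a replicate left out, likewise past it only without replicate 2. Downstream minus other shared sites in the share clustered was 13.7 points with neighbors within 500 bp and 13.1 where any overlapping region was downstream. It was 17.9 without negative distances, and all 3 passed the threshold. It was -6.89 without the runs and 12.1 to 12.3 with a replicate left out, past the threshold without replicate 2. In the comparisons with other shared sites the runs were removed from the downstream class only.

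The clustered median was 25 tags and 752 bp at a score of 100 or more, and its distance was 616 bp without the runs and 567 bp per locus. With a replicate left out the clustered medians were 13 to 23 tags, 442 to 466 bp long and 2460 to 2556 bp from the gene, and the isolated medians were 8 to 10 tags, 141 to 155.5 bp and 966 to 1087 bp. The isolated median was 16.5 tags at 8 or more tags. The causes were not tested. No paired analysis was possible because only the LIN-42::GFP and input libraries share replicate numbers and the inputs have no peak list. There is 1 endogenous library, so its detection of a site has no replicate, and most tags were removed as redundant.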
